A study of Mus musculus with 6 samples.

Results

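The genes described here are 10 regulators of entry into the cell cycle: the D-type cyclins Ccnd1, Ccnd2 and Ccnd3, the E-type cyclins Ccne1 and Ccne2, the kinases Cdk4 and Cdk6, the retinoblastoma gene Rb1, the transcription factor gene E2f1, and Myc. They were chosen by their place in the pathway and not by a measured value, although earlier results of these data were known. For each gene the estimated counts of all its transcripts were summed in each library, and the members are 10 of the 35856 genes in the mouse expression data. All 10 passed the filter on low counts and are among the 15933 genes tested.

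The series compared p53-null mouse cells (Mdm2 fl/fl p53-/-) after deletion of Mdm2, the gene of the ubiquitin ligase that restrains p53, with the same cells given vehicle. There are 6 libraries of total RNA, 3 labelled Mdm2 deleted, which received 4-hydroxytamoxifen (4OHT), and 3 labelled vehicle control, which received ethanol (EtOH), and each arm has 1 library labelled T-cell lymphoma, 1 labelled sarcoma and 1 labelled fibroblasts. Cells labelled lymphoma were exposed for 6 h, and those labelled sarcoma or fibroblasts for 48 h. The lymphoma and the sarcoma arose in Mdm2 fl/fl p53-/- animals and were held in culture for a short time, while the fibroblasts were grown from ear punches of adults of that genotype. All cells had received a retrovirus that carried either the tamoxifen-inducible recombinase CreERT2 with GFP or GFP alone, and the labels do not say which of these vectors each library carried. Exposure to 4-hydroxytamoxifen and the labelled deletion therefore cannot be told apart. Each group of label and arm holds 1 library, so the 3 labels serve as the replicates of an arm, and nothing in the labels says how many separate cultures lie behind them.

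Cyclins D bind CDK4 and CDK6 in G1 phase, and the active kinases phosphorylate the retinoblastoma protein, a repressor that holds E2F transcription factors on the promoters of S-phase genes. E2F1, once released, switches on genes of DNA replication and the E-type cyclins, whose partner CDK2 phosphorylates the retinoblastoma protein further. MYC, a transcription factor that binds DNA with MAX, promotes growth and ribosome production, and D-type cyclins and CDK4 are among its known targets. In fibroblasts several of these genes respond to serum and growth factors.

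Before the members, the labels were set against the data. Mdm2 stood at 30.5, 31.1 and 31.1 TMM-scaled CPM (counts relative to library size, after trimmed-mean scaling) in the 4OHT libraries labelled fibroblasts, lymphoma and sarcoma, against 28.4, 28.0 and 28.5 CPM in the EtOH libraries, so it was no lower in the libraries labelled deleted (log2 fold change 0.13 ± 0.05 SE, edgeR adjusted p = 0.0539). Trp53 counts were present in all 6 libraries, at 22.3 to 28.5 CPM (log2 fold change 0.075, edgeR adjusted p = 0.414). The labels do not say which exons the alleles lack, and reads from the remaining exons would still be counted, so these sums do not show whether an allele was recombined. The T-cell genes Cd3d, Cd3e, Cd247 and Cd2 were at 0 counts in every library, those labelled lymphoma included, and the 8 T-cell markers summed to 3.72 to 4.70 CPM in the 4OHT libraries and 1.96 to 2.20 CPM in the EtOH libraries, nearly all of it Lck. The 8 fibroblast markers summed to 7462 to 7623 CPM in the 4OHT libraries, against 13139 to 13602 CPM in the EtOH libraries, and 7 of the 7 that were tested fell. The 6 macrophage markers summed to 26.04 to 28.86 CPM in the 4OHT libraries and 26.29 to 28.12 CPM in the EtOH libraries. Most of that sum was Cd14, which fell (19.0 ± 1.04 CPM in 4OHT, 22.2 ± 0.604 CPM in EtOH), while the other 3 that were tested rose: Cd68 (6.56 ± 0.651 CPM in 4OHT, 4.72 ± 0.324 CPM in EtOH), Csf1r (0.628 ± 0.130 CPM in 4OHT, 0.255 ± 0.0542 CPM in EtOH) and Itgam (15 to 29 counts per library in 4OHT, 0 to 1 in EtOH). The endothelial gene Pecam1 rose as well, at 0.754 ± 0.134 CPM in 4OHT and 0.173 ± 0.0592 CPM in EtOH. B-cell, endothelial, epithelial and skeletal muscle markers each summed to under 1.3 CPM. Between libraries of one arm, the SD of the log2 difference over protein-coding genes was 0.0962 to 0.139, whatever the cell type label. Between libraries of different arms it was 0.508 to 0.524. The markers thus go against the lymphoma label, and the libraries of an arm were alike under all 3 labels. No marker list used here tells a sarcoma from fibroblasts. Each library is called below by its label only, and the part of these marker differences in the results was not tested. Total estimated counts ran from 26243064 to 37517726 per library, and ribosomal RNA took 1.54% to 1.64% of gene counts in the 4OHT libraries and 0.202% to 2.92% in the EtOH libraries. In libraries of this kind, fewer cells of a type and less RNA per cell cannot be told apart.

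Of the 10 members, 6 rose in the 4OHT libraries, 1 fell and 3 did not pass the test. Those that rose were the 3 D-type cyclins, Ccne1, Cdk6 and Myc, and the one that fell was E2f1. The background was high: edgeR's quasi-likelihood test called 49.6% of all tested genes at an adjusted p under 0.05, and of the tested genes 25% were called higher and 24.6% lower in the 4OHT libraries. The members' median log2 fold change was 0.33, against 0.015 over all tested genes. In 9 of the 10 members the 3 libraries of one arm did not overlap the 3 of the other in CPM. The same held for 55.5% of all tested genes. Of all 10 members, 7 had the 4OHT libraries higher without overlap, against 27.7% of all tested genes. Cdk4 and E2f1 had them lower without overlap, against 27.8% of all tested genes. Among the 8842 tested genes without overlap, the 4OHT libraries were higher in 4410 and lower in 4432, against 7 of the 9 members higher.

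**Figure D1:**
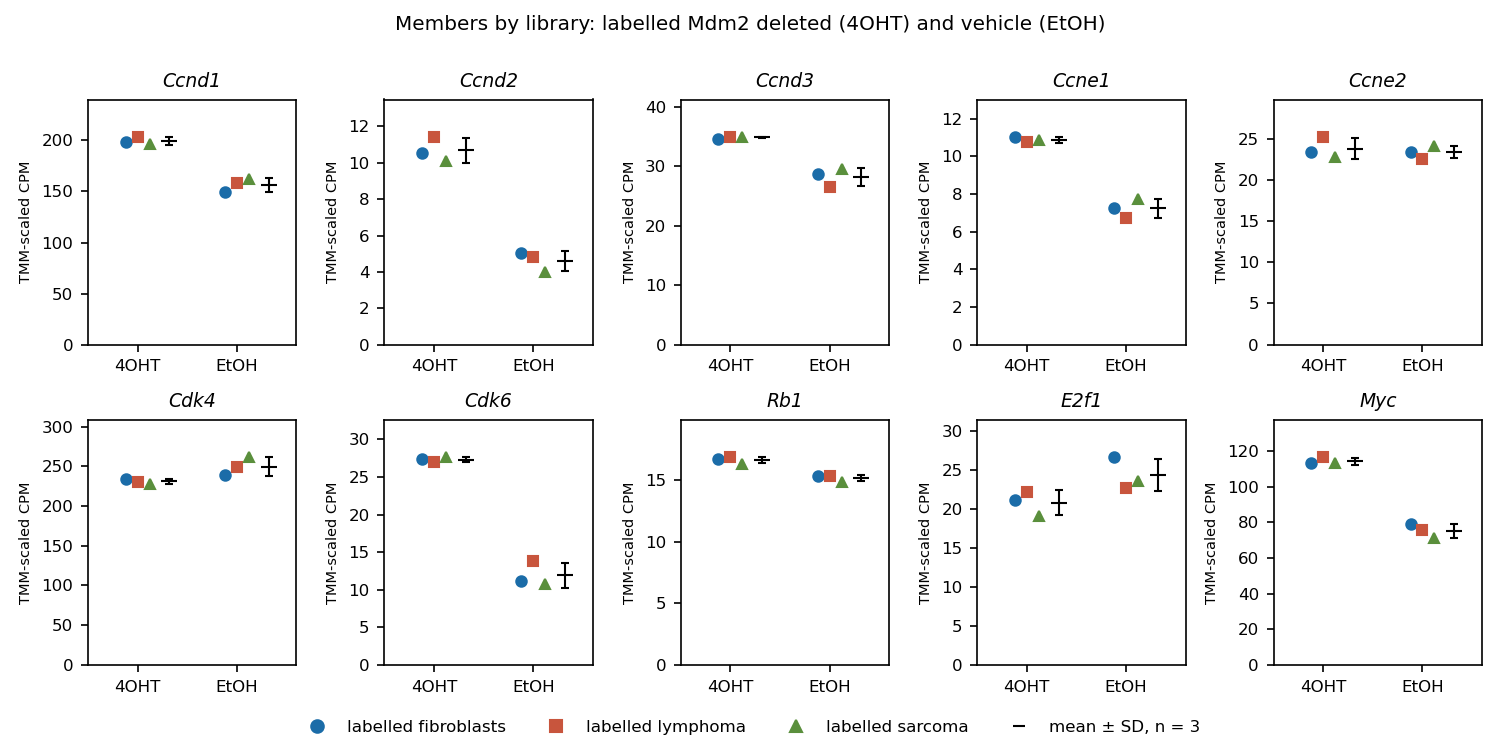
Each panel plots 1 member in TMM-scaled CPM (vertical axis, from 0), with the 3 4OHT libraries left of the 3 EtOH libraries, a marker for each label, and the mean ± SD of each arm (n = 3). Cdk6 stood at 27.0 to 27.6 CPM in the 4OHT libraries and at 10.8 to 13.8 CPM in the EtOH libraries, while the arms of Ccne2 overlapped.

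The D-type cyclins, which are the regulatory subunits of CDK4 and CDK6, all rose, by different amounts. Ccnd1, which encodes cyclin D1 (chromosome 7, 144929931 to 144939925, minus strand, GRCm38), stood at 198, 203 and 196 CPM in the 4OHT libraries labelled fibroblasts, lymphoma and sarcoma, against 149, 159 and 162 CPM in the EtOH libraries. The arms did not overlap, and the 4OHT libraries lay within a narrow band. The means were 199 ± 3.54 CPM in 4OHT and 157 ± 6.65 CPM in EtOH (SD, n = 3 each), a rise of 0.35 ± 0.04 (SE) on the log2 scale, or 1.27-fold (edgeR adjusted p = 5.35e-05). All its counts came from 1 transcript, the sole target of the gene in these files.

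Ccnd2, the gene of cyclin D2 (chromosome 6, 127125162 to 127152193, minus strand), stood at 10.5, 11.4 and 10.1 CPM in the 4OHT libraries, against 5.02, 4.79 and 3.98 CPM in the EtOH libraries. Every 4OHT library was higher than every EtOH library by a wide margin, on 280 to 310 counts per 4OHT library and 142 to 150 counts per EtOH library. The mean was 10.7 ± 0.671 CPM in 4OHT and 4.60 ± 0.545 CPM in EtOH (SD, n = 3 each). With a log2 fold change of 1.22 ± 0.09 (2.33-fold, edgeR adjusted p = 7.16e-07), Ccnd2 had the largest fitted change of the 10 members, ahead of Cdk6 by less than their errors, and 4.33% of all tested genes had a larger one in absolute terms.

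Ccnd3, which encodes cyclin D3 (chromosome 17, 47505051 to 47599691, plus strand), stood at 34.6, 34.9 and 34.9 CPM in the 4OHT libraries, against 28.6, 26.5 and 29.5 CPM in the EtOH libraries. The 4OHT libraries were almost level with each other and above all EtOH libraries (34.8 ± 0.154 CPM in 4OHT, 28.2 ± 1.53 CPM in EtOH; SD, n = 3 each), a rise of 0.30 ± 0.05 on the log2 scale (1.23-fold, edgeR adjusted p = 0.000558). Of the stretches of 31 bases in its longest coding target, 34.6% also occur in the pseudogene Ccnd3-ps, which was not quantified here, so reads of that pseudogene could have been counted as Ccnd3.

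Among the kinase partners, Cdk6 rose and Cdk4 did not pass the test. Cdk6 (chromosome 5, 3341485 to 3531008, plus strand) stood at 27.3, 27.0 and 27.6 CPM in the 4OHT libraries, against 11.2, 13.8 and 10.8 CPM in the EtOH libraries. The arms were far apart, with means of 27.3 ± 0.326 CPM in 4OHT and 11.9 ± 1.63 CPM in EtOH (SD, n = 3 each), and the spread lay mostly in the EtOH arm, where the library labelled lymphoma was highest. The log2 fold change was 1.21 ± 0.08 (2.31-fold, edgeR adjusted p = 1.98e-07). The counts came from 2 transcripts with the same coding sequence. Of the 31-base stretches of that sequence, 15.2% are shared with transcripts of other genes, the largest number with the predicted gene Gm42961. That gene was not quantified here, so its reads could have been counted as Cdk6.

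Cdk4 (chromosome 10, 127063534 to 127067920, plus strand) stood at 234, 231 and 228 CPM in the 4OHT libraries, against 239, 249 and 262 CPM in the EtOH libraries. Each 4OHT library was lower than each EtOH library in CPM. The log2 fold change of -0.11 ± 0.05 did not pass the threshold (edgeR adjusted p = 0.0646, and 0.00793 to 0.449 over the alternatives tried). Without the pair labelled fibroblasts it was called lower, at -0.18 (edgeR adjusted p = 0.00793). The gap was not alike across labels, since the ratio of 4OHT to EtOH was 0.982 under the fibroblast label and 0.872 under the sarcoma label. In the deposited TPM Cdk4 stood at 243, 249 and 221 in the 4OHT libraries, against 246, 250 and 274 in the EtOH libraries. On that scale the arms overlapped. The strand setting of the authors' counting is not given in the sources used here, so the coding sequences were also searched on the opposite strand of other genes' transcripts. Of the 31-base stretches of the longest coding target, 9.03% in Ccne2 lay opposite Ints8, 8.62% in Cdk6 opposite Gm17590 and 2.81% in Rb1 opposite Rcbtb2, and counts over those stretches are uncertain if strand was not used. The other 7 members, Cdk4 included, had none on the opposite strand. In the same orientation, 2.49% of the Cdk4 stretches occur in Gm7158 or Gm44952, which were not quantified here.

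RefSeq (GRCm38.p6) promoter entries matched 5 of the 10 members, Ccnd3 with 2 starts, and the 250 bases before each start were searched on both strands for the MYC-type E-box CACGTG and for the E2F motif in the spellings TTTCCCGC, TTTCGCGC, TTTGCCGC and TTTGGCGC. No spelling of one motif contains the other. The windows of Cdk4 and Cdk6 are shown because these are the members whose windows held an E-box, which is in capitals. The Cdk4 window is chr10:127063285-127063534 and the Cdk6 window chr5:3343643-3343892, both on the plus strand. The Cdk6 window lies inside the span given above for Cdk6, which begins at 3341485. Its RefSeq start is thus downstream of the first base of that span.
Cdk4 promoter: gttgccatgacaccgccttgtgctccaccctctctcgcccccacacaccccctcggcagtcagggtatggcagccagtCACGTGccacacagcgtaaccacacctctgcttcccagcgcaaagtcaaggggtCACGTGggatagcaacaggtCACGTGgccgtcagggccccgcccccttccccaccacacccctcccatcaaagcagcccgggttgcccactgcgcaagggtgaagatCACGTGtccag
Cdk6 promoter: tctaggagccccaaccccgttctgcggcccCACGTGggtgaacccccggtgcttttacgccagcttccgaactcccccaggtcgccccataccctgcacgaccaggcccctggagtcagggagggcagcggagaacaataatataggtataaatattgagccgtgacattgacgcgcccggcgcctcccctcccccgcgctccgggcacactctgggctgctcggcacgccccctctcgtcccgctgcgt
The Cdk4 window held 4 E-boxes, which began 172, 118, 98 and 11 bases before the start, and the Cdk6 window held 1, which began 220 bases before it. Of 32851 RefSeq promoter windows of the same length, 6.02% held an E-box, and 7 windows, or 0.0213%, held at least 4. The windows of E2f1, Ccne1 and Ccnd3 held no E-box, and no member's window held the E2F motif, which was found in 1.86% of all windows. A match describes letters in a window and does not show binding. Only bases before the start and exact spellings were searched, so a window without a match does not show that a promoter lacks a site.

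The E-type cyclins, which activate CDK2 late in G1, differed from each other. Ccne1, the gene of cyclin E1 (chromosome 7, 38097984 to 38107534, minus strand), stood at 11.03, 10.75 and 10.84 CPM in the 4OHT libraries, against 7.27, 6.72 and 7.73 CPM in the EtOH libraries. The arms were well separated, with means of 10.9 ± 0.142 CPM in 4OHT and 7.24 ± 0.505 CPM in EtOH (SD, n = 3 each). The rise was 0.58 ± 0.08 on the log2 scale (1.5-fold, edgeR adjusted p = 9.50e-05).

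Ccne2, the gene of cyclin E2 (chromosome 4, 11191351 to 11204779, plus strand), stood at 23.4, 25.2 and 22.7 CPM in the 4OHT libraries, against 23.4, 22.6 and 24.1 CPM in the EtOH libraries. The arms overlapped, and the log2 fold change was 0.022 ± 0.062 (edgeR adjusted p = 0.791). Ccne2 has coding transcripts that differ by 3 bases at a junction, and these lines show the stretch around them (GENCODE M21, GRCm38, chr4:11192815-11192817, plus strand, extra bases in capitals).
Ccne2 with the bases: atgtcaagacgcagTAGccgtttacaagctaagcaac
Ccne2 without the bases: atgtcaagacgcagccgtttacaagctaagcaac
Targets with the 3 bases took 80.6% ± 5.43 of the Ccne2 counts in 4OHT and 86.8% ± 5.85 in EtOH (SD, n = 3 each), and these shares overlapped between the arms.

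Rb1, whose product holds E2F factors inactive (chromosome 14, 73183673 to 73325822, minus strand), stood at 16.7, 16.9 and 16.3 CPM in the 4OHT libraries, against 15.3, 15.3 and 14.9 CPM in the EtOH libraries. Each 4OHT library was above each EtOH library, by about the same amount under every label, and the ratio was 1.09, 1.10 and 1.10 under the fibroblast, lymphoma and sarcoma labels. The log2 fold change of 0.13 ± 0.06 did not pass the test (edgeR adjusted p = 0.0931, and 0.0395 to 0.469 over the alternatives tried). Counts per library were 437 to 561, and the 95% counting interval of the ratio included 1 under each label.

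E2f1 was the member that fell. E2f1 (chromosome 2, 154559407 to 154569892, minus strand) stood at 21.2, 22.2 and 19.1 CPM in the 4OHT libraries, against 26.7, 22.8 and 23.7 CPM in the EtOH libraries. The arms lay next to each other without overlap in CPM, with the closest values both under the lymphoma label (20.8 ± 1.57 CPM in 4OHT and 24.4 ± 2.06 CPM in EtOH; SD, n = 3 each). The log2 fold change was -0.23 ± 0.07, or 0.855-fold (edgeR adjusted p = 0.0153). This call was lost with DESeq2 (adjusted p = 0.09996, and 0.000676 to 0.252 over the alternatives tried), with limma on the deposited TPM and without the pair labelled sarcoma (edgeR adjusted p = 0.0792). In the deposited TPM E2f1 stood at 8.57, 10.05 and 7.76 in the 4OHT libraries, against 11.2, 9.46 and 9.76 in the EtOH libraries. On that scale the arms overlapped, and the 4OHT library was the higher one under the lymphoma label (ratio 1.06).

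The E2f1 counts were split by the authors' quantification between 2 coding transcripts with different first exons, so that the proteins begin differently. Their first coding exons are shown because they tell the variants apart (GENCODE M21, GRCm38, minus strand, chr2:154569489-154569734 for the upstream variant and chr2:154569067-154569177 for the downstream variant, with the start codon at the left end).
E2f1 downstream exon: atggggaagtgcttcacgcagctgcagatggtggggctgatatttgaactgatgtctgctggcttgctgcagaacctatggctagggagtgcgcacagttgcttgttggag
E2f1 upstream exon: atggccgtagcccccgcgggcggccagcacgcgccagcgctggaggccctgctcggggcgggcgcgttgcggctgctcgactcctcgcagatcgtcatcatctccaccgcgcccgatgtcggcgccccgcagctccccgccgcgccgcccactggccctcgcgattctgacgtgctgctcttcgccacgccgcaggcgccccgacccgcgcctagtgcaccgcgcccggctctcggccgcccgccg
The downstream variant was estimated at 11.6, 14.6 and 11.2 CPM in the 4OHT libraries, against 18.4, 16.5 and 14.8 CPM in the EtOH libraries, and these values did not overlap. The upstream variant was estimated at 9.64, 7.59 and 7.90 CPM in the 4OHT libraries, against 8.29, 6.26 and 8.90 CPM in the EtOH libraries, and these did. The share of the downstream variant in the E2f1 counts was 59.7% ± 5.65 in 4OHT and 67.9% ± 5.12 in EtOH (SD, n = 3 each), and the shares overlapped between the arms. No test was run on single transcripts.

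Myc (chromosome 15, 61985391 to 61990374, plus strand) stood at 113, 117 and 113 CPM in the 4OHT libraries, against 79.0, 75.8 and 71.1 CPM in the EtOH libraries. The arms were wide apart, with means of 114 ± 1.99 CPM in 4OHT and 75.3 ± 3.99 CPM in EtOH (SD, n = 3 each). Myc rose by 0.61 ± 0.04 on the log2 scale (1.52-fold, edgeR adjusted p = 5.93e-07). Its coding transcripts also differ by 3 bases at a junction, shown here to tell the variants apart (GENCODE M21, GRCm38, chr15:61987507-61987509, plus strand, extra bases in capitals).
Myc with the bases: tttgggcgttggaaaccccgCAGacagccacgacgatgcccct
Myc without the bases: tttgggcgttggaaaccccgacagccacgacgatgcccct
The targets with the 3 bases were estimated at 81.4, 90.1 and 85.2 CPM in the 4OHT libraries, against 60.3, 54.5 and 51.3 CPM in the EtOH libraries. The targets without them were estimated at 31.5, 26.5 and 28.0 CPM in the 4OHT libraries, against 18.6, 21.3 and 19.6 CPM in the EtOH libraries. Both kinds were higher in the 4OHT libraries with no overlap between the arms, and the share of counts with the 3 bases was 74.8% ± 2.70 in 4OHT and 73.5% ± 2.48 in EtOH (SD, n = 3 each).

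**Figure D2:**
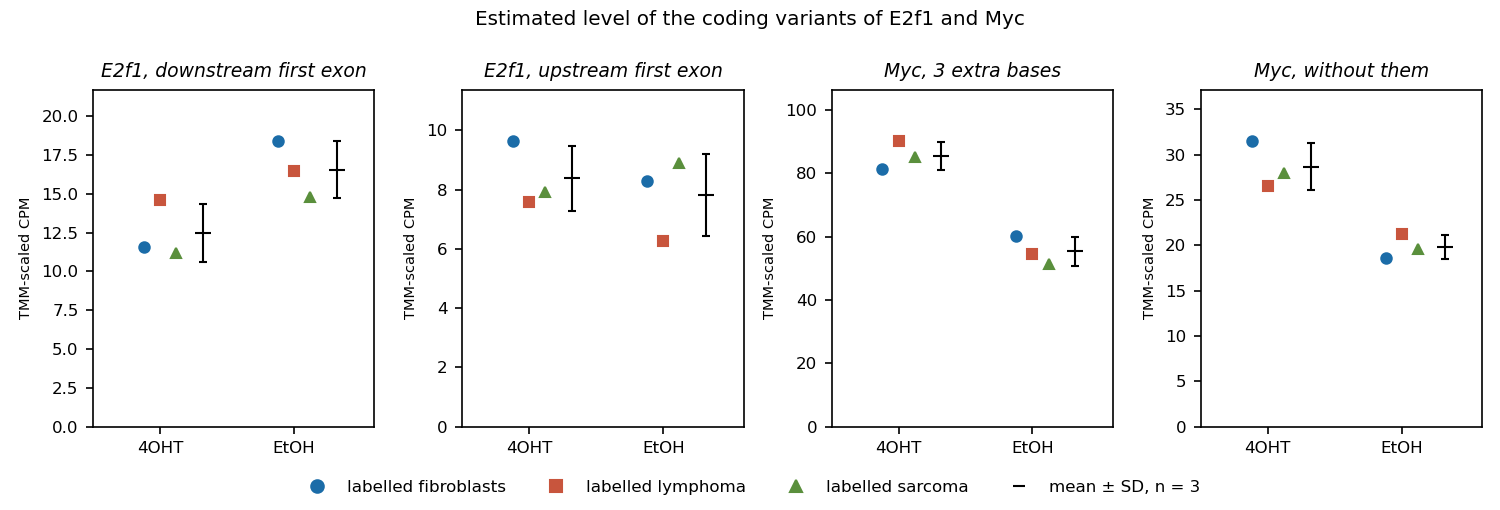
Estimated level in TMM-scaled CPM (vertical axes, from 0) of the E2f1 transcripts with the downstream and the upstream first exon and of the Myc targets with and without 3 extra coding bases, with 4OHT libraries left of EtOH libraries, 1 marker for each label and the mean ± SD (n = 3). The downstream E2f1 variant was lower in the 4OHT libraries without overlap, the upstream one overlapped, and both kinds of Myc target were higher in the 4OHT libraries.

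Within the labelled pairs there is 1 library on each side and no replicate, so only ratios with counting intervals are given. Ccnd2 was higher in the 4OHT library by a ratio of 2.09 (95% interval 1.71 to 2.57) under the fibroblast label, 2.38 (1.95 to 2.93) under the lymphoma label and 2.54 (2.08 to 3.12) under the sarcoma label. The ratio of Cdk6 was 2.45 (2.15 to 2.80), 1.96 (1.73 to 2.22) and 2.56 (2.27 to 2.90) under the same labels in that order. On the log2(CPM + 0.5) scale, Ccnd2 passed 2-fold under the lymphoma and sarcoma labels and Cdk6 under the fibroblast and sarcoma labels, and no other member did under any label. Among genes that averaged 5 CPM or more over a pair, 2.77%, 2.79% and 2.82% passed 2-fold upward in the 4OHT library under the fibroblast, lymphoma and sarcoma labels, and 0.59%, 0.69% and 0.691% passed it downward.

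The ratio of Ccnd1 was 1.33 (1.28 to 1.38), 1.28 (1.23 to 1.33) and 1.21 (1.17 to 1.26) under the fibroblast, lymphoma and sarcoma labels, and that of Myc was 1.43 (1.36 to 1.51), 1.54 (1.46 to 1.63) and 1.59 (1.51 to 1.68). For Ccnd1, Cdk4, Cdk6 and Myc the 3 counting intervals did not all overlap, so the labels differed in size by more than counting error, although no replicate of a labelled pair exists to set this against. Under each label the intervals of Ccnd1, Ccnd2, Ccnd3, Ccne1, Cdk6 and Myc lay above 1. E2f1 had ratios of 0.796 (0.715 to 0.886) and 0.808 (0.724 to 0.900) under the fibroblast and sarcoma labels, and 0.975 (0.871 to 1.09) under the lymphoma label. The exposure times of the labels differ (6 h under the lymphoma label, 48 h otherwise), and time cannot be told apart from label.

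**Figure D3:**
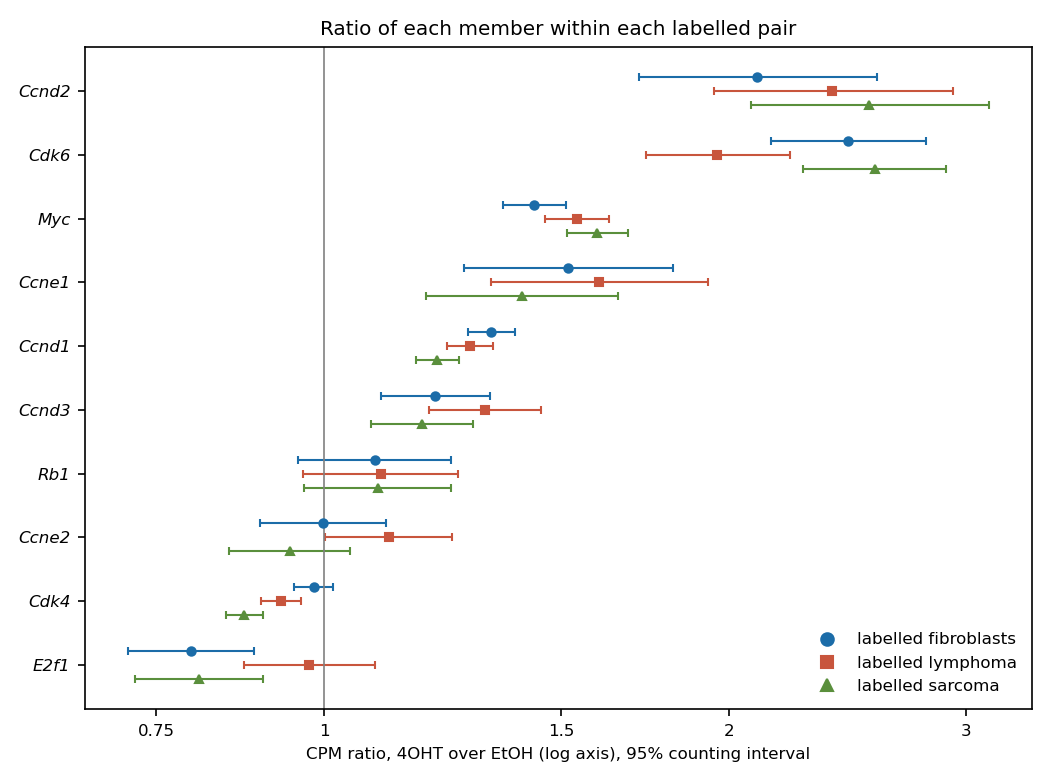
Ratio of TMM-scaled CPM, 4OHT over EtOH (horizontal log axis), for each member (rows, largest at the top) under each label, with 95% counting intervals as bars and a vertical line at a ratio of 1. Ccnd2 and Cdk6 lay between 1.96 and 2.56 under the 3 labels, and E2f1 and Cdk4 at or below 0.982.

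Members can be ranked against each other only per length, here as CPM per kilobase of the longest coding target. On this scale the order of levels in the 4OHT libraries was Cdk4 (253), Ccnd1 (225), Myc (83.8), Ccnd3 (39.6), Cdk6 (27.8), Ccne2 (19.6), E2f1 (16.1), Ccnd2 (12.3), Ccne1 (8.86) and Rb1 (6.02), and no neighbours in that order overlapped. In the EtOH libraries it was Cdk4 (274), Ccnd1 (176), Myc (55.1), Ccnd3 (32.1), Ccne2 (19.2), E2f1 (18.8), Cdk6 (12.1), Ccne1 (5.90), Rb1 (5.49) and Ccnd2 (5.29). There Ccne2 overlapped E2f1, Ccne1 overlapped Rb1, and Rb1 overlapped Ccnd2. Cdk4 and Ccnd1 thus headed both arms, Cdk6 stood above Ccne2 and E2f1 in the 4OHT libraries and below them in the EtOH libraries, and Ccnd2 stood above Ccne1 and Rb1 in the 4OHT libraries and came last in the EtOH libraries. The order changed in places on the scale of the deposited TPM. Ccnd3 stood above Myc there (71.1 TPM against 47.7 TPM in 4OHT, 49.3 TPM against 29.1 TPM in EtOH), and Rb1 came last in both arms (2.81 TPM in 4OHT, 2.50 TPM in EtOH), below Ccnd2 (7.28 TPM in 4OHT, 3.13 TPM in EtOH).

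The makeup of each group of related genes followed from these levels. In CPM per kilobase, Ccnd1 was 81.2% of the D-type cyclins in 4OHT and 82.5% in EtOH, and Ccnd2 was 4.44% ± 0.201 in 4OHT and 2.48% ± 0.369 in EtOH (SD, n = 3 each). Cdk6 was 9.90% ± 0.191 of Cdk4 and Cdk6 together in 4OHT, against 4.25% ± 0.607 in EtOH. Ccne1 was 31.2% ± 1.32 of the E-type cyclins in 4OHT and 23.5% ± 0.670 in EtOH. Among the pocket proteins, which are Rb1 and its relatives Rbl1 (p107) and Rbl2 (p130), Rb1 was 14.2% ± 0.526 in 4OHT and 14.5% ± 0.179 in EtOH, Rbl1 was 54.0% ± 1.46 in 4OHT and 46.2% ± 0.981 in EtOH, and Rbl2 was 31.8% ± 0.933 in 4OHT and 39.3% ± 1.00 in EtOH. The deposited TPM gave Ccnd1 a smaller share of the D-type cyclins, 60.8% ± 3.59 in 4OHT and 64.1% ± 3.43 in EtOH, and Ccnd2 a share of 3.64% ± 0.400 in 4OHT and 2.15% ± 0.202 in EtOH. On TPM Cdk6 was 5.84% ± 0.289 of Cdk4 and Cdk6 together in 4OHT and 2.40% ± 0.389 in EtOH, and Ccne1 was 37.7% ± 3.44 of the E-type cyclins in 4OHT and 29.7% ± 0.606 in EtOH. The shares of Cdk6, Ccnd2 and Ccne1 were thus higher in the 4OHT arm on both scales. Targets of Ccnd3 under 300 bases, 6 in number, held 22.7% to 29.8% of its counts and 68.9% to 81.7% of its TPM, and the 225-base target of Cdk4 held 7.89% to 9.33% of the Cdk4 counts and 45.9% to 50.3% of its TPM.

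The neighbours of the members in the pathway were described from 8 lists, and their counts are read against the background of 25% higher and 24.6% lower. The other pocket proteins, E2F factors and their DP partners had 5 of 11 genes higher and 2 lower, with a median log2 fold change of 0.12, and 4 were called without the pair labelled lymphoma. Rbl1, the gene of p107, rose by 0.38 ± 0.05 (72.9 ± 3.46 CPM in 4OHT, 55.9 ± 1.73 CPM in EtOH), and E2f3, an activating E2F, rose by 0.34 ± 0.06 (17.7 ± 0.705 CPM in 4OHT, 14.0 ± 0.374 CPM in EtOH). E2f7, a repressing E2F, fell by 0.28 (16.7 ± 1.56 CPM in 4OHT, 20.3 ± 1.00 CPM in EtOH). The other genes of the list that were called were E2f4 (0.24 ± 0.05), E2f6 (0.25 ± 0.08) and Tfdp1 (0.12 ± 0.04), which rose, and Rbl2, which fell by 0.14. Within the E2F family E2f3, E2f4 and E2f6 rose, E2f7 and E2f1 fell, and E2f2, E2f5 and E2f8 were not called. The call of E2f1 was lost under several alternatives, and fewer genes of this list were called with DESeq2 or limma.

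The DREAM and MuvB complex, which binds E2F and cell cycle promoters with p130 or with B-Myb, had 3 of 7 genes higher and 1 lower, with a median of -0.021 that became 0.061 without the pair labelled fibroblasts. Lin54, its DNA-binding subunit, rose by 0.77 ± 0.04 (56.6 ± 0.108 CPM in 4OHT, 33.1 ± 0.221 CPM in EtOH), Mybl2, which encodes B-Myb, rose by 0.45 ± 0.04, and Lin37 fell by 0.46. Of 29 E2F target genes of DNA replication, 10 rose and 8 fell, with a median of 0.038. Mcm6, a subunit of the replicative helicase, rose by 0.49 ± 0.04 (318 ± 5.56 CPM in 4OHT, 226 ± 3.29 CPM in EtOH), Orc1, of the origin recognition complex, by 0.43 ± 0.07, and Fen1, a flap endonuclease, by 0.33 ± 0.05. The list thus moved in both directions with a median near that of all genes.

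Of 16 cyclins, CDKs and CDK activators of S and M phase, 1 rose and 8 fell, with a median of -0.12, and 5 and 4 were called without the pairs labelled lymphoma and sarcoma. Cdk2, the partner of the E-type cyclins, fell by 0.31 (21.5 ± 1.35 CPM in 4OHT, 26.7 ± 0.989 CPM in EtOH), Ccnb2, a mitotic cyclin, fell by 0.30 (132 ± 3.46 CPM in 4OHT, 162 ± 3.63 CPM in EtOH), and Cdc25c, a phosphatase that activates mitotic CDK, fell by 0.37 (29.4 ± 0.630 CPM in 4OHT, 37.9 ± 0.0807 CPM in EtOH). The members and this list therefore had medians of opposite sign, 0.33 and -0.12, although 7 of the 16 genes were not called. The E2F target genes of DNA replication had a median of 0.038. Of 8 CDK inhibitors, 7 fell and 1 rose: Cdkn1a, which encodes p21, was at 4.47 ± 0.219 CPM in 4OHT and 1.47 ± 0.567 CPM in EtOH, a log2 fold change of 1.63 ± 0.19 (edgeR adjusted p = 2.51e-05). Cdkn1c (p57) fell by 0.89, and Cdkn2b (p15), an inhibitor of CDK4 and CDK6, fell by 0.76 on 0.968 ± 0.130 CPM in 4OHT and 1.64 ± 0.125 CPM in EtOH. The call of Cdkn2b was lost with DESeq2 (adjusted p = 0.141) and without the pair labelled sarcoma (edgeR adjusted p = 0.0672). Cdkn3, another of the 7 that fell, had arms that overlapped in CPM (20.8 ± 0.868 CPM in 4OHT, 23.2 ± 1.42 CPM in EtOH).

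Of 8 parts of the ubiquitin ligases that degrade G1 cyclins, E2F1 and MYC, 2 rose and 2 fell, with a median of -0.043. Fbxw7, which targets cyclin E and MYC, rose by 0.34 ± 0.06, Ambra1, which targets D-type cyclins, rose by 0.24 ± 0.04, and Fzr1, an activator of the anaphase-promoting complex in G1, fell by 0.25. These genes were measured as RNA, and the data hold no protein levels of the cyclins.

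Around Myc, 5 of the 11 other genes of the Myc, Max and Mxd network rose and 4 fell, with a median of 0.055. Mxd1, a repressor that competes with MYC for MAX, rose by 1.31 ± 0.11 (6.07 ± 0.340 CPM in 4OHT, 2.45 ± 0.142 CPM in EtOH). The Myc paralogs were scarce: Mycl stood at 1.41 ± 0.402 CPM in 4OHT and 0.464 ± 0.0590 CPM in EtOH and rose by 1.599 ± 0.244, and Mycn stood at 0.453 ± 0.142 CPM in 4OHT and 1.55 ± 0.00643 CPM in EtOH and fell by 1.77. Of 27 Myc target genes, most of them of ribosome and nucleotide biogenesis, 20 rose and 2 fell, with a median of 0.30. Over all tested genes the median was 0.015. Rrs1, a ribosome assembly factor, rose by 0.72 ± 0.06 (26.5 ± 0.560 CPM in 4OHT, 16.1 ± 1.45 CPM in EtOH), Wdr43, of the small subunit processome, by 0.67 ± 0.04, and Nolc1, a nucleolar chaperone, by 0.66 ± 0.06. Npm1, a nucleolar histone chaperone, and Ldha, lactate dehydrogenase A, were the genes of that list that fell, and the arms of Npm1 overlapped in CPM. Each of these named genes had an edgeR adjusted p under 0.05, and the lists were not tested as sets.

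**Figure D4:**
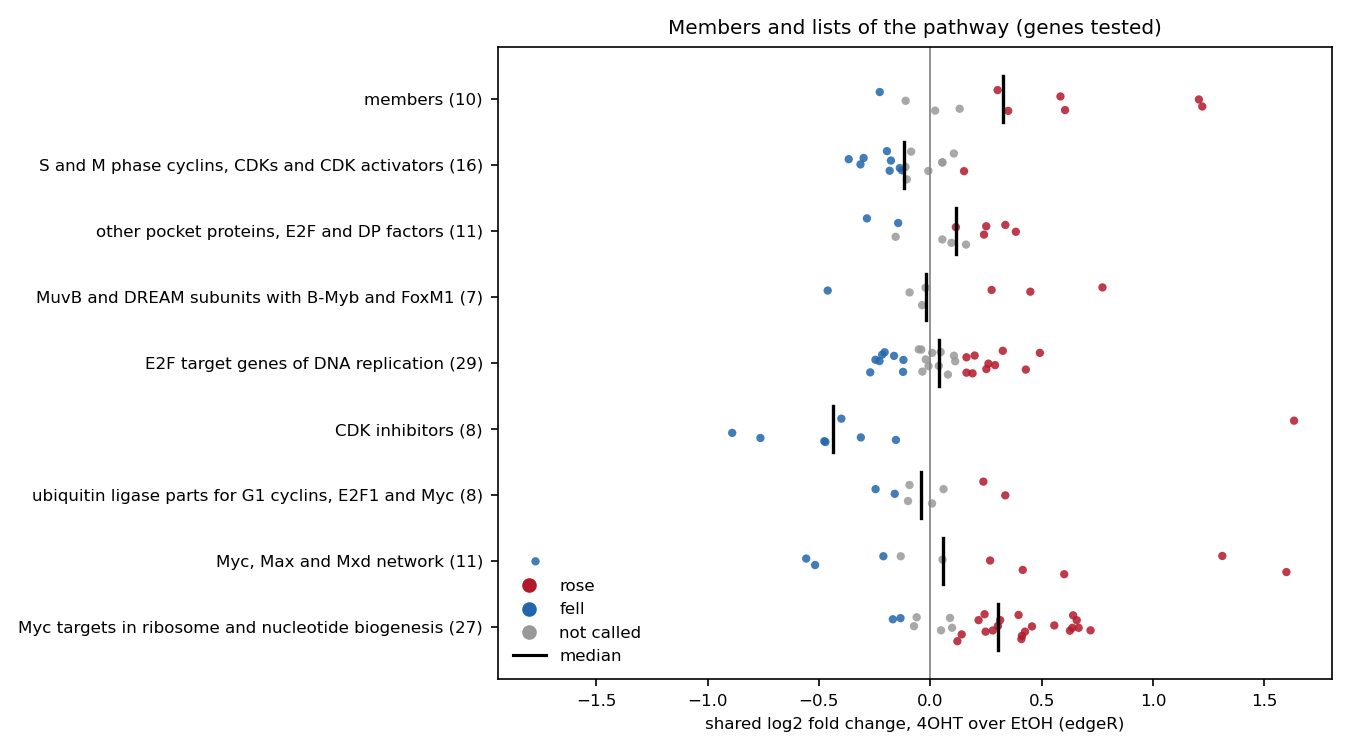
Shared log2 fold change, 4OHT over EtOH (horizontal axis), of the members and of the genes of each pathway list (rows, with the number tested), with 1 point a gene coloured by its call and a black bar at the median. The members and the Myc targets had medians of 0.33 and 0.30, the S and M phase genes -0.12 and the CDK inhibitors -0.43.

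Over the 6 libraries, the genes whose log2(CPM + 0.5) ran most like that of Cdk4, the member with the highest TPM, were Hectd3 (Pearson r = 0.994), Prss16 (0.993) and Rplp0 (0.991). The 6 points share their arms and their depth, so these coefficients are a description. All 3 fell in the 4OHT libraries, by 0.26, 0.49 and 0.14 on the log2 scale, and these calls were lost without the pair labelled sarcoma. Cdk4 itself was lower in CPM in each 4OHT library than in each EtOH library, though not in the deposited TPM. The falls of genes picked for following it are therefore no separate result.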

How the data were processed

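Total RNA from 6 mouse libraries was sequenced after ribosomal RNA depletion with a stranded kit, per the labels' protocols. The authors deposited, per transcript, estimated counts and TPM, and the submitters' processing notes name kallisto 0.43.0 and GRCm38. Neither the annotation nor the strand setting is given in the sources used here. TPM is scaled to a fixed total and keeps no depth.

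The files list 76055 targets, of which 75049 were joined to a GENCODE M21 gene by transcript ID. The 1006 targets not joined held 0.393% to 0.410% of counts and were left out. Of the protein-coding targets, 94.1% had exactly the annotated coding length, so lengths here are coding lengths. Estimated counts were summed per gene and rounded. Total estimated counts were 26243064 to 37517726 per library. A count of 0 allows up to 3 counts, which is 0.0797 to 0.113 CPM per library, and intervals and floors cover counting error only.

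The arms were compared over all 6 libraries with edgeR 4.0.16 in R 4.3.3 (two-sided quasi-likelihood test, TMM, filterByExpr, Benjamini-Hochberg adjustment over 15933 genes, threshold 0.05), with label as a blocking factor. The standard error is the absolute log2 fold change over the square root of F. The labels give 1 library of each cell type label in each arm, and these were taken as pairs. After removal of the arm means, the log2 values of a pair had a correlation of 0.0324 (fibroblast label), 0.139 (lymphoma) and 0.141 (sarcoma). Nothing says that the libraries of an arm came from separate cultures, so p-values reflect a spread among libraries that may be technical. Libraries of one arm differed beyond counting noise and none was counted as a duplicate. With 3 libraries in each arm an exact permutation test cannot go below 0.1, so none is given. Within a labelled pair the CPM ratio has a Clopper-Pearson interval, and 2-fold calls used log2(CPM + 0.5) at a mean of at least 5 CPM.

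The members and the lists were chosen with earlier results of these data known. Named genes were the 10 members, Mdm2 and Trp53, from each list the 3 called genes with the largest change and 1 sign in all pairs, and the 3 genes that correlate best with the member of highest TPM. Npm1, Ldha and Cdkn3 were named after their values were seen. Alternatives were DESeq2 1.42.0 and its size factors, no filter, no replicate block, limma 3.58.1 on log2(TPM + 1) and log2(TPM + 0.1), protein-coding genes alone, and leaving out each pair. Levels per kilobase were added after seeing the data. Promoters are from RefSeq, and coding sequences from GENCODE.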

Additional observations from a re-analysis of the deposited data

How the results depend on the processing

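Of 696 recomputed values, 596 kept their direction and their side of the threshold or stayed within the tolerance, 62 moved, 32 lost a call, 5 gained one and 1 reversed. The calls of Ccnd1, Ccnd2, Ccnd3, Ccne1, Cdk6 and Myc held under all 10 alternatives, and Ccne2 was called under none of them. Without the replicate block, that is without the pairing by label, 7514 genes were called, against 7901 with it, and no member's call changed. Over all genes, 2541 (DESeq2), 2352 and 2401 (limma on log2(TPM + 1) and log2(TPM + 0.1)) were called higher, against 3981, and 2488, 1552 and 1589 lower, against 3920; limma put 60.2% of its calls higher, against 50.4% with edgeR. Leaving out each pair gave 3256 to 3540 higher and 3185 to 3949 lower. The number of members called lower was 0 with DESeq2 (2 at an unadjusted p under 0.05) and both limma fits (0 unadjusted), 2 with no filter, and 0 to 2 when a pair was left out. E2f1 was not called with DESeq2 (-0.23) or limma (-0.19 and -0.21), and ran from -0.32 to -0.19 when a pair was left out. Cdk4 was called with no filter (-0.14) and ran from -0.18 to -0.068 when a pair was left out. Rb1 was called among protein-coding genes alone (0.15).

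Of the S and M phase genes limma called 1 in either fit, against 9, and 4 to 9 were called when a pair was left out. Of the pocket protein and E2F list, 4 were called with DESeq2 and 1 in each limma fit, against 7, and 4 to 8 when a pair was left out. Of the replication targets, 11 were called with DESeq2 and 3 and 4 with limma, against 18. Of the ubiquitin ligase parts limma called 0 (2 at an unadjusted p under 0.05) and DESeq2 called 4, against 4 with edgeR. The MuvB and DREAM median, -0.021, ran from -0.084 to 0.061 when a pair was left out, and it reversed to 0.061 without the pair labelled fibroblasts. The cause of these shifts was not tested. On deposited TPM the pair ratio was 1.41 for Ccnd1 under the lymphoma label, 1.47, 1.46 and 1.40 for Ccnd3 under the fibroblast, lymphoma and sarcoma labels, 0.997 and 0.807 for Cdk4 under the lymphoma and sarcoma labels, 1.06 for E2f1 under the lymphoma label, where it turned from 0.975, and 1.72 and 1.66 for Myc under the fibroblast and lymphoma labels. Set against shares of TPM, shares of counts and of CPM per kilobase gave Ccnd1 81.4% and 81.2% in 4OHT and 82.7% and 82.5% in EtOH, Ccne2 68.6% and 68.8% in 4OHT and 76.4% and 76.5% in EtOH, and Cdk4 89.4% and 90.1% in 4OHT and 95.4% and 95.7% in EtOH (on TPM, 94.2% in 4OHT and 97.6% in EtOH). Rb1 took 12.3% of pocket protein counts in 4OHT and 12.5% in EtOH. Ccnd2 and Ccne1 had at most 325 counts in a library, which widens their intervals.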
